A study of Mus musculus with 2 samples.

Results

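The genes described here are the cytotoxic granule genes Gzma, Gzmb, Prf1 and Nkg7 and the effector chemokine genes Ccl5 and Xcl1, which killer lymphocytes express together. They were taken by name, as every probe set whose single annotated gene was one of the 6, and this gave 7 probe sets among the 34945 probe sets with 1 gene, or 6 genes of 18193. The study hybridised RNA from C57BL/6J thymocytes to 2 one-colour arrays, 1 titled TKO and 1 titled DKO. Per the series' design text, TKO cells were LckCre(+) and DKO cells LckCre(-), and both were Cdkn2a-/-, Ring1A-/- and Ring1Bfl/fl, so that Ring1B could be deleted by Cre in TKO cells alone. The samples' own genotype entries differ from this: they give loss of Ring1A, Ring1B and Cdkn2a for TKO and of Ring1A and Ring1B for DKO. Cells carrying lineage markers had been depleted with beads, the remaining cells are called DN (double-negative) thymocytes in the series title, and the labels state culture in a standard medium. Lck-Cre is driven in T-lineage cells, so other cells of the fraction need not share the deletion. The age, the sex and the number of mice behind each array are not stated in the labels.

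Cytotoxic lymphocytes store granzymes, a family of serine proteases, in granules together with perforin, which opens pores in a target cell membrane and lets granzymes in. Natural killer (NK) cells, cytotoxic CD8 T cells and some innate-like T cells also release chemokines that draw in other leukocytes. In the thymus, most double-negative cells are early T-lineage cells, and NK and innate-like lymphocytes are a small part of the cells without CD4 and CD8. Ring1A and Ring1B are the catalytic subunits by which a Polycomb complex ubiquitinates histone H2A, and Polycomb keeps genes of other lineages silent.

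With 1 array for each label there was no spread between animals or cultures, no test was possible and no p-value was computed. The words higher and lower describe these 2 arrays. Values are deposited MAS5 signals on a linear scale, and a signal below the median of its array (71.8 on the TKO-labelled and 68.8 on the DKO-labelled array), called the floor, was not counted as measured. A ratio against a floor is a bound and is given as at least. A gene counts as higher or lower where it differed by 2-fold or more. The targeted gene Cdkn2a had a signal of 18.5, under the floor, on the TKO-labelled array. On the DKO-labelled array it had 679, although the design text gives the DKO cells as Cdkn2a-/-. Rnf2 (Ring1B) had 4384 and 4149, and Ring1 (Ring1A) 147 and 133, on the TKO-labelled and DKO-labelled arrays, above the floor on both although the design text or the genotype entry gives each as lost. The position of these probe sets against the deletions is not known from the labels, so the arrays are called by their labels. The arrays also differed in sex-linked RNA, with Xist at 16502 on the TKO-labelled and 124 on the DKO-labelled array, and Eif2s3y, on the Y chromosome, at 55.3 and 1711. Sex and genotype label cannot be told apart here, and none of the 6 genes lies on the X or Y chromosome.

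All 6 genes were measured on both arrays, and 1 of them, Xcl1, exceeded 2-fold, with the higher signal on the TKO-labelled array. None was 2-fold lower. Among all 23894 measured probe sets 2.91% were at least 2-fold higher and 0.578% at least 2-fold lower, and among all 11280 measured genes the shares were 3.58% and 0.532%. The median log2 ratio of the 6 genes was 0.25, beside -0.03 over all measured genes, and 5 of the 6 ratios were positive, beside 46.5% of all genes. The 6 genes did not move as a block: their log2 ratios ran from -0.28 for Gzma to 1.22 for Xcl1. As the arrays read bulk RNA, fewer cells of a type and less RNA per cell cannot be told apart.

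**Figure D1:**
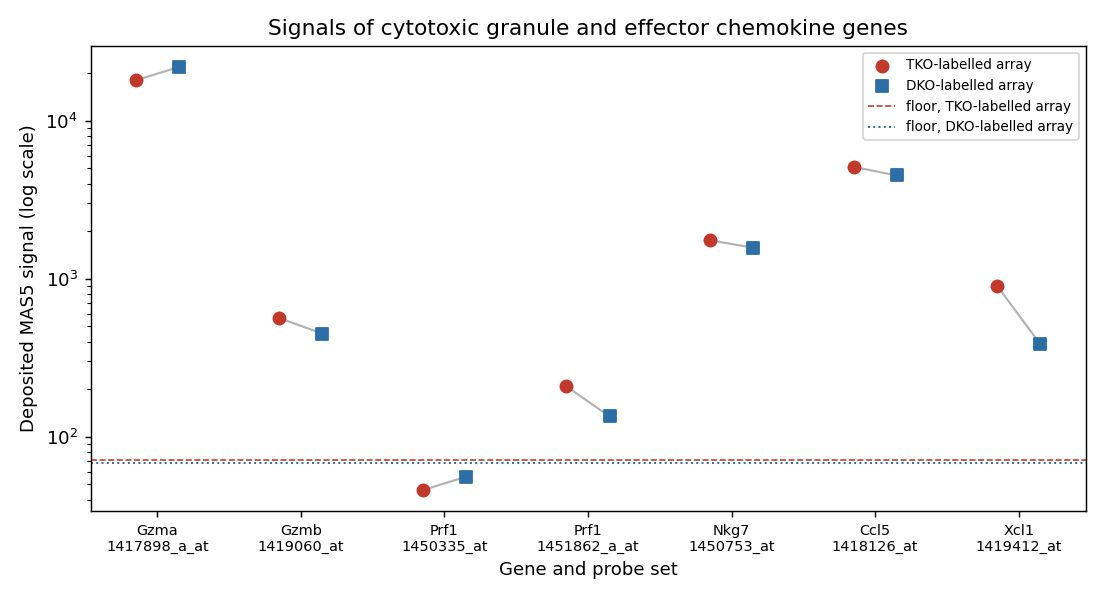
Deposited signal (log axis) of each of the 7 probe sets on the TKO-labelled array (circles, left) and the DKO-labelled array (squares, right), with the floor of each array as a line. Xcl1 shows the steepest difference, 900.5 against 386, Gzma is the only measured probe set that is lower on the TKO-labelled array, and 1 Prf1 probe set lies below both floors.

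The 2 granzymes differed little and in opposite directions. Gzma, a granzyme that cleaves after basic residues, had a signal of 18012 on the TKO-labelled array and 21801 on the DKO-labelled array. It was 1.21-fold lower, a log2 ratio of -0.28, from a probe set at percentile 99.4 of both arrays. Gzma RNA was thus among the brightest signals in both lineage-depleted fractions. Gzmb, which cleaves after aspartate and activates caspases in target cells, had a signal of 564 on the TKO-labelled array and 449.6 on the DKO-labelled array. It was 1.25-fold higher, a log2 ratio of 0.33. Signals of different probe sets depend on their probes, so the gap between the Gzma and Gzmb signals gives no ratio of their transcripts.

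Perforin was read by a pair of probe sets, of which 1 was measured. The brighter of them had a signal of 208 on the TKO-labelled array and 135 on the DKO-labelled array, 1.55-fold higher, a log2 ratio of 0.63. The dimmer lay below the floor on both arrays, at 46.1 on the TKO-labelled and 55.9 on the DKO-labelled array, and has no ratio. Prf1 therefore has 1 dim reading above the floor, and with the floor raised to the 75th percentile it has none. Nkg7, a granule membrane protein needed for granule release, had a signal of 1751 on the TKO-labelled array and 1570.0 on the DKO-labelled array, 1.12-fold higher, a log2 ratio of 0.16.

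The chemokines divided. Ccl5 (RANTES), which attracts T cells and monocytes, had a signal of 5098 on the TKO-labelled array and 4497 on the DKO-labelled array. It was 1.13-fold higher, a log2 ratio of 0.18. Xcl1 (lymphotactin), the ligand of the dendritic cell receptor Xcr1, had a signal of 900.5 on the TKO-labelled array and 386 on the DKO-labelled array. It was 2.33-fold higher, a log2 ratio of 1.22, and is the only one of the 6 past 2-fold. Its receptor Xcr1 lay below the floor on both arrays, at 61.0 on the TKO-labelled and 24.9 on the DKO-labelled array.

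In 4794 genes with several probe sets measured on both arrays, the log2 ratios of 2 probe sets of the gene were compared. The robust SD of their difference, divided by the square root of 2, was 0.23, as an SD for a single probe set. Such probe sets share a hybridisation, so this SD holds no error between RNA preparations or animals. The ratios of Nkg7 and Ccl5 were smaller than it, those of Gzma and Gzmb somewhat larger, and those of Prf1 and Xcl1 more than 2 times as large. None of the 6 genes had a second measured probe set on which its own ratio could be checked. Measured probe sets were also split into 10 classes of equal size by mean signal to set each gene beside features of like brightness. In the class that holds Xcl1, 90% of the log2 ratios ran from -0.46 to 0.67, and 2.05% of 2390 probe sets had a ratio as high as that of Xcl1 or higher. For Prf1 the same range was -0.63 to 0.95, and 9.87% were as high or higher. In the brightest class, which holds Gzma and Ccl5, the range was -0.37 to 0.37 around a median of -0.12, so the Gzma ratio lay 0.15 below that median. The ratios of Gzma, Gzmb, Prf1, Nkg7 and Ccl5 all fell inside the range of their class, and that of Xcl1 fell outside.

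**Figure D2:**
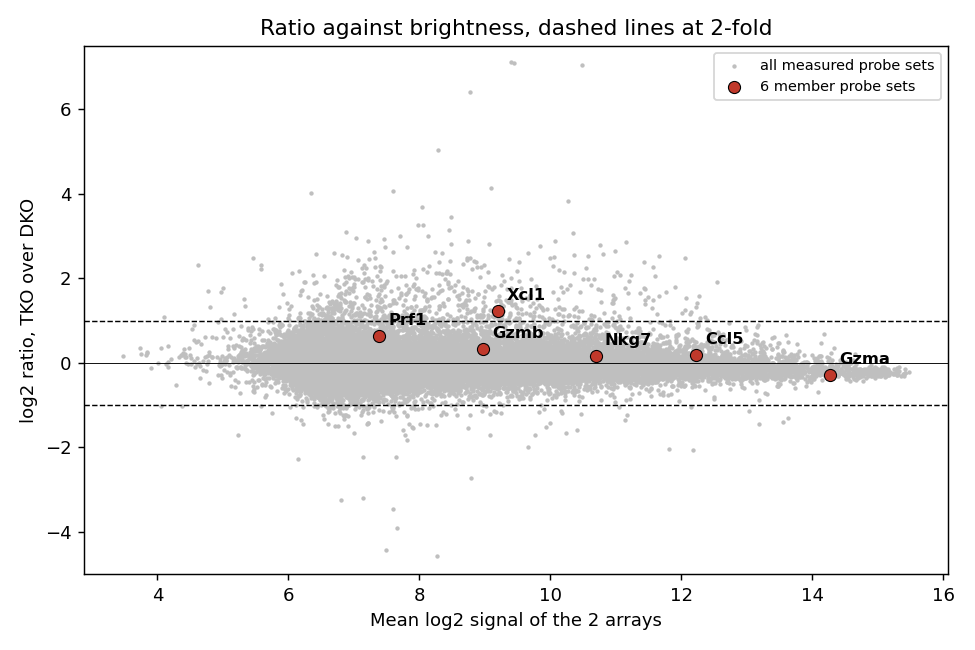
log2 ratio of TKO over DKO signal against the mean log2 signal of the 2 arrays for all 23894 measured probe sets (grey) and for the 6 measured probe sets of the cytotoxic granule and chemokine genes (red, named), with dashed lines at 2-fold. Xcl1, at 1.22, lies above the upper line, and the other 5 lie between the lines.

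The sequences before 5 of the 6 genes were set out because only 1 of the genes passed 2-fold. RefSeq promoter windows (assembly GRCm38.p6, 250 bases before to 50 after a gene's start) matched Gzma, Gzmb, Prf1, Nkg7 and Xcl1, and Ccl5 had no entry. The windows were searched on both strands for TGTGGT, a core bound by Runx factors, GGTGTG, a core bound by T-box factors, and TGANTCA, the AP-1 motif. The windows of Xcl1, the gene past 2-fold, of Gzmb, a granule gene with a small positive ratio, and of Gzma, the gene with the negative ratio, read 5′ to 3′ on the strand of the gene, with matches in capitals:
Xcl1, chr1:164935473-164935772, minus strand: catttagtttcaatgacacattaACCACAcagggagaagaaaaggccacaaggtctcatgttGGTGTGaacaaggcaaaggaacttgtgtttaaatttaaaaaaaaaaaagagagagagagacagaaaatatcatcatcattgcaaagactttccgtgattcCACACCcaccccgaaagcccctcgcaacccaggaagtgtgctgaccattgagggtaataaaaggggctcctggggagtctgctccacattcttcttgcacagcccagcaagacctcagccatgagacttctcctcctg
Gzmb, chr14:56262285-56262584, minus strand: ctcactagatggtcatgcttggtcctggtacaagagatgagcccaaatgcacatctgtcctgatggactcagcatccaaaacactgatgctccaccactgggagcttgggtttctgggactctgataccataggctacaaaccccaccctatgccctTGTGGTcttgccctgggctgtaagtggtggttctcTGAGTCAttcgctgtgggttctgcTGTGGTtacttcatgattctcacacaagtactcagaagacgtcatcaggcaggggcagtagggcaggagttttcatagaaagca
Gzma, chr13:113100932-113101231, minus strand: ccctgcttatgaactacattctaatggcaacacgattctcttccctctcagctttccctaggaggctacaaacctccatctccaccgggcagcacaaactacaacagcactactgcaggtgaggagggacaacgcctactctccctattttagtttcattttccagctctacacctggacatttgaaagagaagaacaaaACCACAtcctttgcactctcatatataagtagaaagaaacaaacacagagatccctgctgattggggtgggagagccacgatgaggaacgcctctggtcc
The Runx letters stood in all 5 windows, beside 16.8% of 32851 windows of the same length, which belong to 27025 genes. In Xcl1 they began 227 bases before the start on the opposite strand (ACCACA), in Gzmb 93 and 34 bases before it on the same strand, and in Gzma 50 bases before it on the opposite strand. The T-box letters stood in the windows of Xcl1 and Nkg7, 2 of 5, beside 19.0% of all windows. In Xcl1 they occurred once on each strand, 188 and 88 bases before the start. The AP-1 letters stood only in the window of Gzmb, 58 bases before the start, beside 7.81% of all windows. No 2 matches overlapped in these windows. The 5 windows held 2 to 5 CpG dinucleotides, beside a median of 7 over all windows, and their GC content ran from 45.7% in Xcl1 to 58.7% in Prf1, beside a median of 52.7%. The matches describe letters and give no binding. The gene past 2-fold and the granule genes that were not past it shared the Runx letters.

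Of the wider pathway, 5 lists of genes were looked at: other granzymes, granule processing and release, death ligands and cytokines, chemokines and their receptors, and effector transcription factors with cytokine receptors. Of 59 listed genes with a probe set, 47 were measured on at least 1 array, and 7 of these were at least 2-fold higher and 1 was 2-fold lower. As shares these are 14.9% and 2.13%, beside 3.58% and 0.532% of all measured genes, and the pooled median log2 ratio was 0.26. With the floor at the 75th percentile 23 were measured, of which 2 were higher, Zeb2 and Il18r1, and 0 lower, so most of these calls rested on dim signals.

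The other granzymes were mostly not measured, and those that were did not move together. Gzmd, Gzme, Gzmf, Gzmg and Gzmn, which belong to the granzymes that rodents have beside Gzmb, lay below the floor on both arrays. Gzmc, of the same mouse family, had a signal of 388 on the TKO-labelled array against 36.7 on the DKO-labelled array, which is under the floor. It was at least 5.64-fold higher. Gzmm, which cleaves after methionine and similar residues, ran the other way, with 65.4, under the floor, on the TKO-labelled array and 149 on the DKO-labelled array, and was at least 2.07-fold lower. Gzmk, a tryptase-like relative of Gzma, had 215 on the TKO-labelled array and 252 on the DKO-labelled array, a log2 ratio of -0.23. Of the granzymes measured on both arrays, Gzma and Gzmk had negative ratios and Gzmb a positive one. Gzmc and Gzmm were each measured on 1 array alone, which fixed the sign of their bounds.

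The genes that load and release granules were nearly level. All 19 were measured and 0 passed 2-fold in either direction, with a median log2 ratio of 0.16 and a range from -0.69 to 0.98. Srgn, the serglycin core protein that binds granzymes inside the granule, had 15617 on the TKO-labelled array and 12846 on the DKO-labelled array, a log2 ratio of 0.28. Ctsc, the peptidase that activates granzyme precursors, had 5340 and 3744 on the TKO-labelled and DKO-labelled arrays, a log2 ratio of 0.51, and a dimmer second probe set of it, of the _s_at type, gave 1.34. Ctsw, a cysteine protease of cytotoxic lymphocytes, came nearest to 2-fold, with 1424 on the TKO-labelled array and 722 on the DKO-labelled array, a log2 ratio of 0.98, and was just past 2-fold, at 1.01, with the median log2 ratio set to 0. At the other end, Rab27a, a small GTPase that docks granules at the membrane, had 909 on the TKO-labelled array and 1470 on the DKO-labelled array, a log2 ratio of -0.69. Stx11, a syntaxin of granule fusion, was measured on the TKO-labelled array alone, at 127 against 51.1 on the DKO-labelled array, with a log2 ratio of at least 0.88. Lamp2, a lysosomal membrane protein, had a log2 ratio of 0.72, and its dimmer probe sets had 0.24, 0.46 and 0.61.

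Of the 8 death ligand and cytokine genes, 5 were measured, of which 1 was higher and 0 were lower, and their median log2 ratio was 0.31. The higher one was Ifng, interferon gamma, at 143 on the TKO-labelled array against 65.0, under the floor, on the DKO-labelled array, at least 2.08-fold higher. It stood at the limit of the rule, and after quantile normalization its log2 bound was 0.999. Fasl, the ligand of the death receptor Fas, had 204 on the TKO-labelled array and 164 on the DKO-labelled array, a log2 ratio of 0.31. A dimmer second probe set of Fasl, near the floor on the DKO-labelled array, gave 0.85. Tnfsf10 (TRAIL) had 562 on the TKO-labelled array and 513 on the DKO-labelled array, a log2 ratio of 0.13. Tnf was measured on the TKO-labelled array alone, with a log2 ratio of at least 0.32.

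In the list of other effector chemokines and receptors, the measured genes had positive ratios. Of its 9 genes with a probe set, 6 were measured, of which 2 were higher and 0 were lower, and their median log2 ratio was 0.61. Cxcl10, an interferon-induced chemokine, had 214 on the TKO-labelled array and 94.8 on the DKO-labelled array, 2.26-fold higher. Ccl9, a chemokine of mouse myeloid cells, had 157 and 74.5 on the TKO-labelled and DKO-labelled arrays, 2.10-fold higher, and as the mean over its probe sets a log2 ratio of 0.81. Ccl4, which killer lymphocytes release with Ccl5, had 251 on the TKO-labelled array and 188 on the DKO-labelled array, a log2 ratio of 0.41. Its relative Ccl3 was measured on the TKO-labelled array alone, at 114 against 53.3, with a log2 ratio of at least 0.73, and Ccl1 had 0.49. The receptor Ccr1 had a log2 ratio of 0.11, and Ccr3 lay below the floor on both arrays.

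The regulators of the effector program had the highest median of the 5 lists, 0.66 over 14 measured genes, with 3 higher, 0 lower and 11 neither. Zeb2, a transcriptional repressor that promotes terminal effector differentiation, had 1464 on the TKO-labelled array and 611 on the DKO-labelled array, 2.40-fold higher, and its 4 other probe sets had log2 ratios from at least 0.62 to 2.12. Prdm1 (Blimp-1) was measured on the TKO-labelled array alone, at 152 against 44.0, and was at least 2.21-fold higher. Il18r1, a chain of the interleukin-18 receptor, had 840 and 411 on the TKO-labelled and DKO-labelled arrays, 2.04-fold higher, and a log2 ratio of 0.99 after quantile normalization. Tbx21 (T-bet), a T-box factor that drives cytotoxic and interferon gamma genes, had 362 on the TKO-labelled array and 242 on the DKO-labelled array, a log2 ratio of 0.58. Eomes, its close relative, had 410 and 220 on the TKO-labelled and DKO-labelled arrays, a log2 ratio of 0.90, and 0.50 on a second probe set. Id2, an inhibitor of E proteins that innate lymphocytes need, had 4608 and 2405, in the same order, a log2 ratio of 0.94. On the negative side were Nfil3 at -0.30, Stat4 at -0.26 and Il12rb1 at -0.19.

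**Figure D3:**
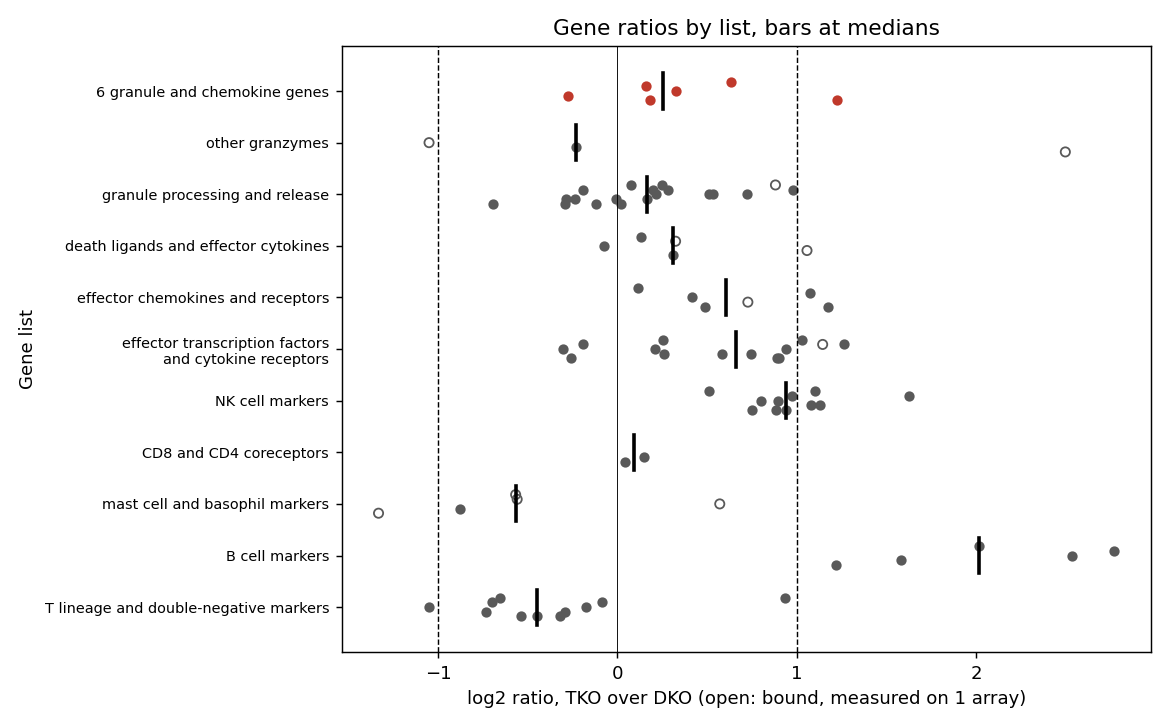
log2 ratio of TKO over DKO signal for each measured gene (points, 1 probe set a gene) by list, with open points for bounds, a bar at the median of each list and dashed lines at 2-fold. The 6 granule and chemokine genes (red, median 0.25) spread from -0.28 to 1.22, and the 11 NK cell markers all lie on the positive side, with a median of 0.94.

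Markers of NK cells, which carry such granules, had positive ratios. All 11 measured NK cell markers of 13 with a probe set had positive ratios, with a median log2 ratio of 0.94 and a range from 0.51 to 1.62, and 4 were at least 2-fold higher, or 2 with the floor at the 75th percentile. Their summed signals were 9207 on the TKO-labelled array and 4696 on the DKO-labelled array. The 4 were the lectin-like receptor genes Klrb1a (391 against 127, 3.08-fold), Klrb1f (382 against 178, 2.15-fold, and a log2 ratio of 0.86 as the mean over its probe sets) and Klrd1 (1998 against 944, 2.12-fold) and the signalling chain Fcer1g (986 against 452, 2.18-fold). Ncr1 (NKp46), the receptor most specific to NK and innate lymphoid cells, had 357 on the TKO-labelled array and 251 on the DKO-labelled array, a log2 ratio of 0.51. Itga2 and Klrc2 lay below the floor on both arrays. The ratio of Xcl1 lay within the range of these markers, that of Prf1 lay in its lower part, and those of Gzma, Gzmb, Nkg7 and Ccl5 lay below its lowest value. The difference between the lists was not tested.

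Markers of other cell types were read in the same way. The CD8 chains Cd8a (635 against 616) and Cd8b1 (1080 against 975) were measured on both arrays at log2 ratios of 0.04 and 0.15. The other probe sets of Cd8a, also measured on both arrays, had higher log2 ratios, of 0.10, 0.32, 0.49 and 0.52. Cd4 lay below the floor on both arrays. The T lineage and double-negative markers had a median log2 ratio of -0.45, with 10 of 11 negative and summed signals of 72374 on the TKO-labelled and 104278 on the DKO-labelled array. Il2ra (CD25), which marks early double-negative stages, was 2.07-fold lower, and under 2-fold after removal of the brightness trend (log2 ratio -0.98) and as the mean over its probe sets (-0.95). Cd44, which also separates double-negative stages, was the 1 gene of the list with a positive ratio, at 2030 on the TKO-labelled array and 1061 on the DKO-labelled array, a log2 ratio of 0.94, and a second probe set of it, at 1679 and 838 in the same order, was just past 2-fold. All 5 B cell markers were at least 2-fold higher (median 2.01, sums of 15521 and 4192, TKO-labelled and DKO-labelled), and 3 were with the floor at the 75th percentile. Mast cell and basophil markers, 5 of 10 measured, had a median of -0.57. Their summed signals were 1192 on the TKO-labelled and 2253 on the DKO-labelled array. Of the 5, 3 were measured on the DKO-labelled array alone and 1 on the TKO-labelled array alone, which fixed their signs. The median was itself a bound, that of Tpsab1. Cpa3, the mast cell carboxypeptidase, was measured on both, with 884 on the TKO-labelled and 1622 on the DKO-labelled array. Macrophage and neutrophil markers divided, with 2 of 9 higher (Csf1r and Lyz2), 2 lower (Ngp and S100a9) and sums of 4750 and 4221. Positive log2 ratios were those of Csf1r (1.69), Lyz2 (1.32), Cd68 (0.53) and Adgre1 (0.44). Negative were those of Ngp (-1.54), S100a9 (-1.16), S100a8 (-0.87), Elane (-0.55, a bound) and Mpo (-0.06). With the floor at the 75th percentile 1 (Lyz2) was higher and 0 were lower. There Csf1r and S100a9 fell short of 2-fold and Ngp was not measured. Dendritic cell markers, 5 of 6 measured, had a median of 0.39 and sums of 6629 and 6011, and of the gamma-delta T cell markers 2 were measured, Sox13 at -0.33 and Cd163l1 at -0.10, with sums of 1365 and 1506 (TKO-labelled and DKO-labelled in each case). The part of these cell types in the ratios of the 6 genes was not tested. Of the reference genes, 5 were measured, with log2 ratios from -0.31 to 0.06.

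The 6 measured probe sets kept their sign and their side of 2-fold wherever they had a value, but the size of the Gzma ratio depended on the processing. The log2 ratio of Xcl1 ran from 1.11 to 1.26 over the reported and 7 alternative settings, and the lowest is a bound, from a floor above the DKO-labelled signal. Gzmb ran from 0.30 to 0.36, Nkg7 from 0.14 to 0.19 and Ccl5 from 0.18 to 0.26. Prf1 ran from 0.57 to 0.67 in the settings that measured it. Gzma stayed negative, from -0.28 to -0.11, and its smallest values came after quantile normalization and after removal of the trend of ratio on brightness.

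**Figure D4:**
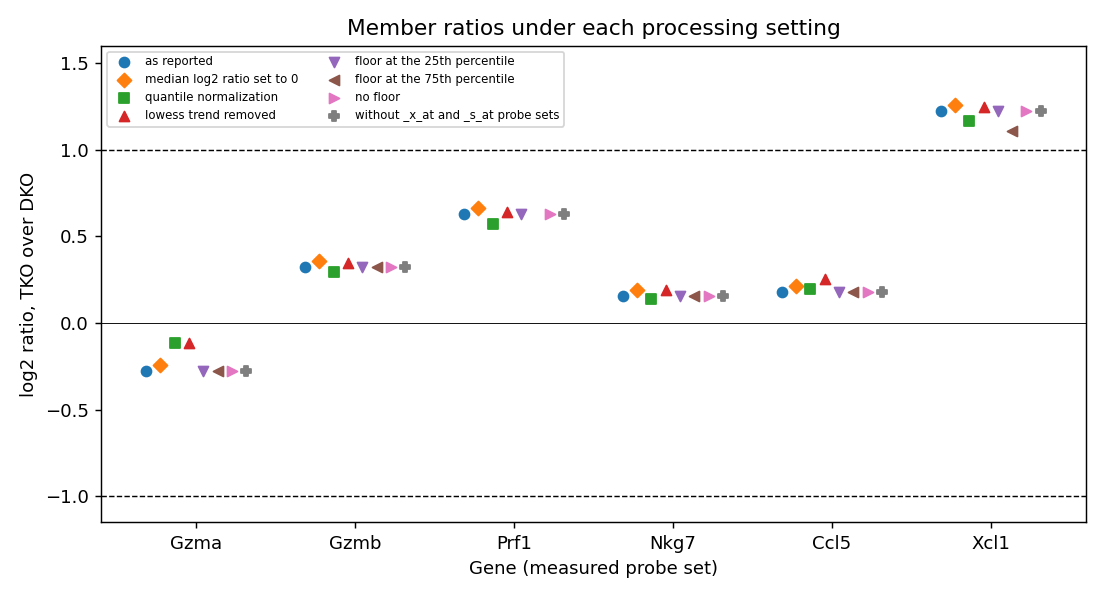
log2 ratio of TKO over DKO signal of the 6 genes (columns) as reported and under 7 other processing settings (symbols), with dashed lines at 2-fold. Xcl1 lies above 2-fold in all of them, between 1.11 and 1.26, and the other 5 genes lie in none past 2-fold. Prf1 is shown by its brighter probe set alone and has no value with the highest floor.

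Genes with the most similar pair of signals were found by the distance between log2 signals over the 2 arrays. The nearest to Xcl1 were Dnah8 (distance 0.093) and Bmpr1a (0.11), and the nearest to Gzma were Set (0.013) and Mcm7 (0.015). For Gzmb they were Yipf6 and Spsb3, for Prf1 Gm4951 and Ifngr2, for Nkg7 Opa1 and Cers5, and for Ccl5 Wdr6 and Larp4b. With 2 arrays such likeness is 2 numbers that lie close.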

How the data were processed

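The authors deposited 1 table of array intensity values, 1 per probe set and array, on a linear scale. Per the submitters' processing notes it was made with MAS5, whose version and settings are not given in the sources used here. Each array had been scaled as a whole, with a mean of 497 on both after trimming 2% from each end. Detection calls and scanner files were not used here, and the number of arrays limits the precision.

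Arrays were grouped by title (TKO, DKO). The platform annotation gave 1 gene for 34945 of the 45037 probe sets and several genes for 932, and it left 9160 unlisted. Symbols and chromosomes came by Entrez ID from a RefSeq table of assembly GRCm38.p6, which matched 99.4% of the probe sets with 1 gene. Members are given per probe set, and each listed gene is represented by the brightest of its probe sets (mean log2 signal). Signals below the median of an array were raised to it, and the log2 ratio is TKO minus DKO. The rule for named genes took all probe sets of the 6 members, up to 4 genes of each list by absolute ratio, a fixed set of pathway genes, the targeted genes and the 2 nearest genes of each member. Nfil3, Stat4, Il12rb1, Ncr1, Ccr1, Ccr3, Cd68, Adgre1, S100a8, Elane, Mpo, the genes below the floor, and the sex-linked genes fall outside it or were picked with their values known. The members and lists were chosen with earlier results of these data known. Calculations used Python 3.11.15, numpy 2.4.6, pandas 2.3.3 and statsmodels 0.14.6, plots matplotlib 3.10.9. The procedure was tested on simulated data. Alternatives were 3 scalings, 3 floors, the mean over probe sets, omission of _x_at and _s_at probe sets, and omission of genes on X and Y.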

Additional observations from a re-analysis of the deposited data

How the results depend on the processing

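The direction of the 6 probe sets measured as reported, and their side of the 2-fold rule, held under each alternative that gave a value. Prf1 had none with the floor at the 75th percentile. With the floor at the 25th percentile or no floor, the dimmer Prf1 probe set was also measured. It had a log2 ratio of -0.28, opposite in sign to that of the brighter one. Counts depended on the floor. Of the 47 measured genes of the 5 pathway lists, 7 were higher and 1 lower as reported. The number measured changed with the floor too: at the 25th percentile 12 of 54 were higher, at the 75th 2 of 23 were higher and 0 lower, and with no floor 14 of 59 were higher and 4 lower. Over all genes, 404 higher and 60 lower of 11280 measured were reported. These became 962 and 434 at the 25th percentile, and 147 and 14 at the 75th. With no floor, 2197 were higher and 1497 lower of all 18193 genes. All of these counts follow from which dim signals enter. The numbers of all genes measured at the 25th and 75th percentile floors are not given here. The pathway counts at those floors therefore have no background share beside them. Some small values changed sign. The median of all genes was 0.0084 with the median of genes measured on both arrays set to 0, and 0.0080 after removal of the brightness trend. The reference genes had a median of 0.031 after quantile normalization and 0.027 after removal of that trend. The median of the other granzymes was 0.31 with the floor at the 25th percentile. That of the macrophage and neutrophil markers was 0.041 with the 75th and 0.19 without _x_at and _s_at probe sets. These list medians were taken over other numbers of measured genes: 5 in place of 3 granzymes, and 4 and 8 in place of 9 markers. The other sign changes came with a rescaling of the signals. Nothing further about their cause was tested. No paired analysis was possible because each group has 1 array. Signals near the floor limit the ratios of dim genes such as Ccr1, Tnf, Ccl1 and Ccl3, and no error between mice can be given for any value.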

Other observations

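Several of these genes lie in stretches of related genes, and the neighbours were read as well, chosen after their values were seen and named in RefSeq order. Gzmb stands at one end of a stretch of 15 protein-coding granzyme, chymase and cathepsin genes on chromosome 14, of which 13 had a probe set. Only Gzmb was measured on both arrays. Gzmc, next to it, was measured on the TKO-labelled array alone, and the mast cell and myeloid protease genes Cma1, at the other end, and Mcpt4 and Ctsg, further inside, were measured on the DKO-labelled array alone. Cma1, a mast cell chymase, had 48.0 on the TKO-labelled array and 181 on the DKO-labelled array, at least 2.52-fold lower. Ctsg, cathepsin G of neutrophils and monocytes, had 45.5 and 114 in the same order, a log2 ratio of -0.67 or below. The remaining 8 lay below the floor on both arrays. Over all 18193 genes, 10316 were measured on both arrays, 523 on the TKO-labelled array alone and 441 on the DKO-labelled array alone.

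On chromosome 11, Ccl5 is 1 of 11 chemokine genes in order, and 7 of them were measured on at least 1 array, all with positive ratios. Among all measured genes 46.5% had positive ratios. Ccl3 was measured on the TKO-labelled array alone, which fixed the sign of its bound. Ccl6, a chemokine of mouse myeloid cells, had 801 on the TKO-labelled array and 132 on the DKO-labelled array, 6.06-fold higher, and its second probe set had 286 and 50.8. Ccl8, which attracts monocytes, had a log2 ratio of 0.48. Ccl2, Ccl7, Ccl11 and Ccl12 lay below the floor on both arrays. Ccl5 had the smallest ratio of the 7, at 0.18. The part of myeloid cells in these values was not tested.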
